A study of Drosophila melanogaster with 3 samples.

Results

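Stretches of the Drosophila chromosome arms of 70000 bp or more in which no MCM peak was called are described here. They were found by pooling the MCM peaks of both replicates on 2L, 2R, 3L, 3R, X and chromosome 4, merging peaks that overlapped by at least 1 bp, and taking the distance between neighbouring merged regions. This gave 268 long stretches among 11354 stretches in all, or 2.36%, and the other 11086 are called shorter stretches. The peaks themselves chose the stretches, so lengths, positions and flanking peaks are given as descriptions with no test. The peaks of a replicate did not choose the stretches set by the other replicate alone. Even so, a peak that overlaps one of the setting replicate cannot lie inside such a stretch, whatever its length.

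Chromatin of Kc167 cells, a female line of embryonic origin with genotype se/e, was immunoprecipitated with a mouse monoclonal antibody raised against the yeast MCM2-7 complex and sequenced. The cells grew asynchronously, so the lists mix all phases of the cell cycle. The series has 3 samples, which are 2 MCM immunoprecipitations from separately numbered chromatin extractions (replicates 1 and 2) and 1 input, which is not analysed here. Whether separate cultures were used for the extractions is not in the labels, and the spread between the replicates may thus be technical. Coordinates are those of FlyBase release 5.1. Neither genes nor sequence of that release were used here, so genes within the stretches are not named.

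MCM2-7 is the ring-shaped helicase that opens DNA ahead of replication forks. It is loaded onto chromatin in G1 at sites bound by the origin recognition complex, with the help of Cdc6 and Cdt1, and more of it is loaded than is used in one S phase. Where no complex is loaded, DNA has to be copied by forks that start elsewhere. In flies, the heterochromatin around the centromeres is known to replicate late. A peak list reports where signal passed the caller's threshold. A stretch without a peak can therefore hold little MCM, or it can hold sequence in which a peak could not be called, and the files do not tell these apart.

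Replicate 1 held 10356 peaks on the arms and chromosome 4, with a median width of 135 bp, and replicate 2 held 8171, with a median width of 133 bp. Together they merged into 11360 regions, of which 6918 held peaks of both replicates, 3373 of replicate 1 only and 1069 of replicate 2 only. The files give no read counts, so the depth behind each list is unknown.

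The long stretches were few but took up 26.3% of the arm spans, 31.5 Mb of 119.9 Mb between the first and last region of each arm. Their median length was 103 kb (interquartile range 80.4 to 136 kb), against 2.74 kb (0.581 to 9.27 kb) for the shorter stretches. Stretches of 20 to under 70 kb numbered 1344 and took 39.3% of the span. The 3737 stretches under 1 kb were 32.9% of all stretches but took only 1.35% of the span. Among the long stretches, 65 fell between 70 and 80 kb, 60 between 80 and 100 kb, 93 between 100 and 150 kb, 32 between 150 and 200 kb, and 18 reached 200 kb or more. The 27 longest, the shortest of which measured 177.7 kb, held 19.8% of the summed length.

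**Figure D1:**
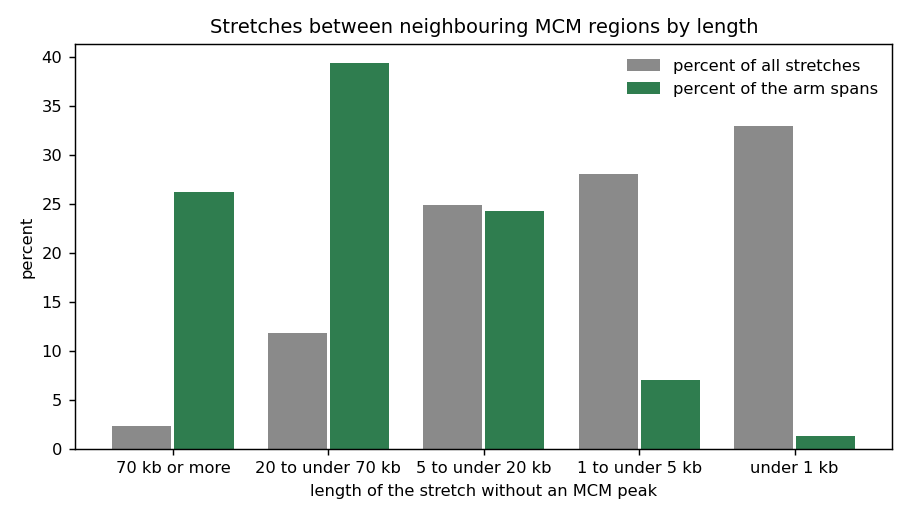
Stretches between neighbouring MCM regions on the 6 arms, grouped by length. Grey bars give the percent of the 11354 stretches in each class and green bars the percent of the arm spans they cover: the class of 70 kb or more has 2.36% of the stretches and 26.3% of the span.

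The threshold does not mark a break in the lengths. The shortest members were 70057 bp, on 2L from 15113519 to 15183575, and 70308 bp, on 3R from 27137407 to 27207714. The nearest stretches outside were 69769 bp, on 3L from 6612420 to 6682188, and 69763 bp, on 2L from 21683839 to 21753601. There were 36 stretches from 70 to under 75 kb and 40 from 65 to under 70 kb.

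Each stretch can also be read as a distance to the nearest MCM region. Positions more than 35 kb from any region, which by construction lie in long stretches, made up 12.7 Mb or 10.6% of the arm spans. Positions more than 50 kb away made up 6.92 Mb (5.77%), in 143 stretches. Positions more than 100 kb away made up 0.978 Mb (0.816%), in 18 stretches. The median long stretch had its midpoint 51.4 kb from the nearest region, and the midpoint of the longest lay 179 kb away.

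The longest stretch lay near the proximal end of 3L. It ran from 24168815 to 24526681 and measured 358 kb in the pooled list and 358 kb in replicate 1. In replicate 2 no peak lay beyond it, so its length there has no end. Its distal flank was a region of 174 bp found in both replicates, with scores of 2.66 in replicate 1 and 2.60 in replicate 2. Its proximal flank was a peak of 15 bp in replicate 1 only, with a score of 1.80. One edge therefore rested on both extractions and the other on a single short call.

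The next longest also lay on 3L, from 23331259 to 23659678. It measured 328 kb in replicate 1 and 408 kb in replicate 2, and neither of its flanks was shared, one being a replicate 1 peak and the other a replicate 2 peak. The third was on 2L from 16888975 to 17196748, with 308 kb in replicate 1 and 354 kb in replicate 2, and the fourth on 2R from 1265029 to 1559201, with 294 kb and 314 kb in replicates 1 and 2. The fifth was on 3L from 17048694 to 17332374, where the replicates were close, with 284 kb in replicate 1 and 288 kb in replicate 2.

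Of the other stretches among the 10 longest, 3 were on 2L. One ran from 11528934 to 11797833, with 269 kb in replicate 1 and 276 kb in replicate 2. One ran from 3897952 to 4161076, with 263 kb and 301 kb in replicates 1 and 2. One ran from 4463640 to 4726137, with 263 kb in replicate 1 and 268 kb in replicate 2. The last pair of the 10 were on X from 14216997 to 14474503, with 258 kb in each replicate, and on 2R from 2134353 to 2381852, with 248 kb in replicate 1 and 252 kb in replicate 2. The stretch on X was the only one of these 10 with both edges held by both replicates.

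The longest stretch of 3R, from 19184839 to 19427127, measured 242 kb in replicate 1 and 243 kb in replicate 2. Its flanks were broad regions of 320 and 439 bp, both shared. Chromosome 4 had 2 members. One ran from 739489 to 828481, with 89.0 kb in replicate 1 and 116 kb in replicate 2, and its distal flank was a peak of 1 bp called in replicate 1 only, with a score of 4.56. The other ran from 1052612 to 1133591, with 81.0 kb in each replicate.

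Long stretches took the largest share of 2L. In the pooled list, 61 members covered 7.11 Mb or 31.1% of the span of 2L, followed by X with 53 members and 27.8%, 3L with 51 and 26.1%, 3R with 60 and 24.7%, 2R with 41 and 22.2%, and chromosome 4 with 2 and 13.9%. With each replicate by itself, the share of 2L was 37.6 ± 6.24% (SD, n = 2), that of X 32.1 ± 4.16%, that of 3L 29.6 ± 2.95%, that of 3R 28.6 ± 4.36% and that of 2R 27.7 ± 4.97% (SD, n = 2 each). 2L was highest in both replicates, with 33.2% in replicate 1 and 42.1% in replicate 2, and X was second in both, with 29.2% and 35.0%. The shares of 3L, 3R and 2R ranged from 24.2% to 27.5% in replicate 1 and from 31.3% to 31.7% in replicate 2, so the order among them is not resolved.

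Chromosome 4 differed between the single and the pooled lists. Each replicate alone had 4 long stretches there, covering 28.6% in replicate 1 and 31.0% in replicate 2, about the share on the arms. Pooling left 2, with 13.9%.

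**Figure D2:**
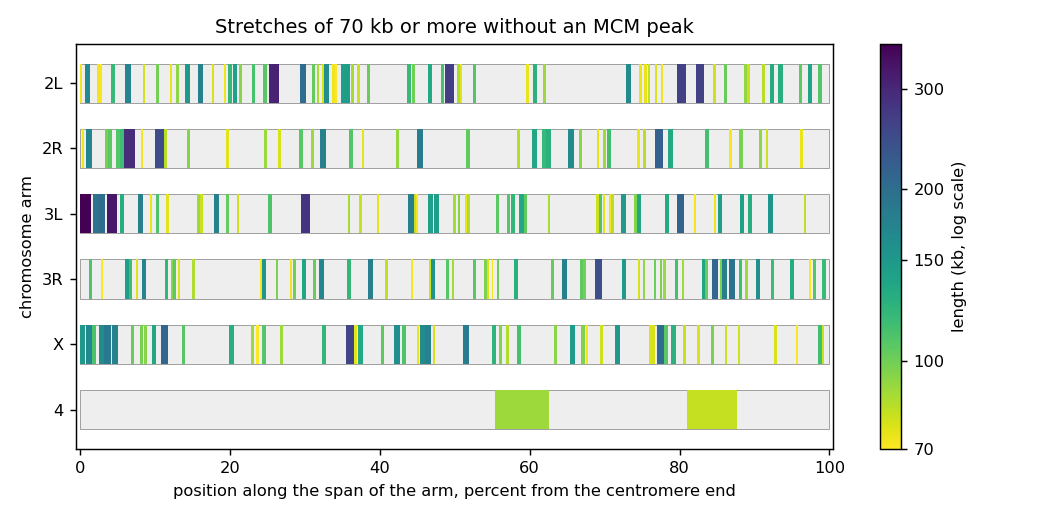
The 268 stretches without an MCM peak on each arm, drawn to scale along the span of the arm from the centromere end (0%) to the other end (100%). Colour gives the length in kb on a log scale. Long stretches gather at the left end of 2R, 3L and X, and chromosome 4 has 2.

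Long stretches occurred along whole arms and were densest next to the centromere. With each span cut into bins of 10%, the bin at the centromere end was covered to 44.0% in the pooled list, while the other bins ranged from 18.6%, at the far end, to 29.3%. With single replicates, the proximal bin was covered to 49.1 ± 5.07% and the bin at the far end to 23.7 ± 4.13% (SD, n = 2 each). The median length was 118 kb in the proximal bin and between 94.7 and 109 kb in the others.

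The arms differed in this respect. In the proximal bin, coverage was 60.0% on 3L, 59.7% on X and 49.3% on 2R, but 32.8% on 2L and 24.7% on 3R. On 2L the bin from 30 to 40% of the span was highest, with 11 members and 51.1%, and on 3R the bin from 80 to 90%, with 9 members and 43.4%. Over the 2 Mb at the centromere end, long stretches took 65.9% of 3L, 61.9% of X, 52.0% of 2R, 37.5% of 2L and 22.1% of 3R. In the interior, away from the 2 Mb at either end, they took 23.6% of 3L, 25.3% of X, 19.9% of 2R, 30.3% of 2L and 25.2% of 3R. 3R was thus the only one of these arms whose proximal 2 Mb held a smaller share than its interior.

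Among 116 windows of 1 Mb, the median share in long stretches was 24.5%, 10 windows exceeded 50%, and 6 held none. The highest was 3L from 23000001 to 24000000, with 73.5%, 12 peaks in replicate 1 and 6 in replicate 2. The second was 3R from 23000001 to 24000000, with 63.4%, and the third 2R from 1000001 to 2000000, with 59.2%. The window on 3R held 52 peaks in replicate 1 and 45 in replicate 2, against means of 86.4 and 68.1 per Mb over all arm spans. Of the 10 windows over 50%, only X from 12000001 to 13000000 held more than these means. It had 58.6% in long stretches, with 102 peaks in replicate 1 and 81 in replicate 2.

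Between consecutive long stretches of an arm lay blocks with MCM regions. There were 262 such blocks, with a median of 24.5 regions (interquartile range 7 to 61) over 224 kb (72.0 to 452 kb). The 31 blocks with over 100 regions held 40.0% of the regions lying in such blocks. The longest ran without a long stretch for 2446 kb on 3R, from 4273193 to 6719378, with 269 regions, and for 2444 kb on 2L, from 6291769 to 8735879, with 281.

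Neighbouring stretches were longer beside a long stretch. Of the stretches directly next to a long one, 9.35% (50 of 535) were long themselves, against 2.19% (485 of 22161) of those next to a shorter stretch and 2.36% of all stretches. This is 3.96 times the share among all stretches, and 1.77 times with the higher-scoring 50% of the peaks, 2.08 times with regions of both replicates only and 2.65 times without replicate 1. Each pair is counted from both sides, so the 50 come from 25 pairs and no interval is given. The median neighbour of a long stretch measured 8.07 kb, and that of a shorter stretch 2.86 kb. The share of long stretches was 3.38% at the second stretch away from a long one, 3.01% at the third, 4.51% at the fourth and 2.26% at the fifth. These shares rest on the lengths that chose the stretches and are a description.

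A single MCM region separated neighbouring long stretches in 25 places. These 25 pairs held 50 of the 268 members (18.7%), and no run had 3 or more. There were 7 pairs on 3R, 6 on 3L, 5 on 2L, 4 on X, 3 on 2R and none on chromosome 4. The longest pair was on 2R from 1148232 to 1559201, where 117 and 294 kb were parted by a region of 191 bp, from 1264838 to 1265028, with scores of 2.69 in replicate 1 and 3.23 in replicate 2. The second was on 3L from 23723487 to 24118649, with 203 and 192 kb on either side of a replicate 1 peak of 40 bp. The next pairs were on X. One, from 21495681 to 21844964, had 186 and 163 kb around a region of 331 bp, and the other, from 11923111 to 12263446, had 175 and 166 kb around a region of 114 bp. The fifth, also on X, from 14142169 to 14474503, had 74.7 and 258 kb around a region of 127 bp. Without the single region, these 5 would be stretches of 332 to 411 kb.

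Among the 25 single regions, 18 (72%) were held by both replicates, 6 by replicate 1 only and 1 by replicate 2 only. The exact binomial 95% interval of this 72% ran from 50.6% to 87.9%. The 61.0% found among regions that bound no long stretch lies within it. This interval covers counting error only, and the regions were chosen by the lengths beside them. It is therefore no test, and no difference in sharing is claimed. The 5 single regions with the highest score, averaged over the peaks within, were on 3L, 2L, 3R and X. A peak of 131 bp on 3L from 6393592 to 6393722 scored 5.59 in replicate 1 and has no replicate 2 value. On 2L, the region from 2585370 to 2585566 scored 5.76 in replicate 1 and 4.52 in replicate 2. On 3R, the region from 1833170 to 1834398 scored 3.73 in replicate 1 and, as the mean of 2 peaks, 4.82 in replicate 2. X from 12097728 to 12097841 scored 4.71 in replicate 1 and 3.97 in replicate 2, and 3R from 18724924 to 18725079 scored 4.56 and 3.85. In replicate 1 the region on 2L thus scored highest. Of the 5, 4 were called in both replicates. Averages over both lists depend on which list a region is in, since replicate 2 scores ran lower.

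The widest single region was the one on 3R from 1833170, with 1229 bp, made of 1 peak of replicate 1 and 2 of replicate 2. The second was on 2L from 22354026 to 22354735, with 710 bp, and the third the region of 331 bp on X. The narrowest was a replicate 1 peak of 5 bp on 3R from 6790424 to 6790428. Some of the separations thus rest on broad regions called in both extractions and others on a few bases in one.

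The regions that bound long stretches were narrower than other MCM regions. There were 511 of them, with a median width of 112 bp, against 134 bp for the other 10849. By peaks, the median width at the flanks was 109.8 ± 1.06 bp, against 135.5 ± 2.12 bp elsewhere (SD, n = 2 each), a ratio of 0.810 ± 0.00485 (SD, n = 2). Replicate 1 had 110.5 bp at 468 flanking peaks and 137 bp elsewhere, and replicate 2 had 109 bp at 345 flanking peaks and 134 bp elsewhere. The difference was larger than the spread between replicates, but that spread is from the same pooled flanks in both. With each replicate's own stretches the ratio was 0.834 ± 0.0548 (SD, n = 2). At the pooled flanks the narrower width was present on each of the 5 major arms in both replicates. Ratios there ran from 0.674 on 3L in replicate 1 to 0.962 on 3R in replicate 2. Broad regions of 600 bp or more made up 1.17% of the flanking regions (6 of 511), against 3.80% of the others (412 of 10849).

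Width went down step by step as the longer neighbouring stretch grew. Leaving out the regions between 2 long stretches, peaks beside a long stretch had a median of 107.8 ± 0.354 bp (SD, n = 2). Peaks whose longer neighbour was 20 to under 70 kb had 121.5 ± 0.707 bp, those with 5 to under 20 kb 129.5 ± 2.12 bp, and those with both neighbours under 5 kb 149.5 ± 0.707 bp (SD, n = 2 each). Regions standing alone between 2 long stretches departed from this order, with 131.5 ± 2.12 bp (SD, n = 2), from 24 peaks in replicate 1 and 20 in replicate 2. Among the long stretches, with the regions between 2 of them included again, the order did not continue. In replicate 1 the median was 124 bp beside stretches of 150 kb or more, 118 bp beside those of 100 to under 150 kb and 100 bp beside those of 70 to under 100 kb, and in replicate 2 it was 118, 108.5 and 109 bp.

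The narrower width was seen among peaks that overlapped a peak of the other replicate. Shared flanking peaks had a median of 147 bp in replicate 1, against 193 bp for other shared peaks, and of 124 bp in replicate 2, against 154 bp. For unshared peaks the medians were 58 bp at flanks and 59 bp elsewhere in replicate 1, and 40.5 bp at flanks and 37 bp elsewhere in replicate 2, so no consistent difference was seen there.

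Taken over all peaks, scores did not differ between flanking and other peaks beyond the spread between replicates. The median score, taken from the authors' peak lists and without a stated unit, was 2.59 at flanks and 2.58 elsewhere in replicate 1, and 2.24 at flanks and 2.32 elsewhere in replicate 2. The ratio was 0.984 ± 0.0286 (SD, n = 2) and lay on different sides of 1 in the replicates. Split by sharing, it was below 1 for shared peaks, with 0.977 in replicate 1 and 0.964 in replicate 2. For unshared peaks it was above 1, with 1.04 in replicate 1 and 1.02 in replicate 2. Where only regions held by both replicates set the stretches, the ratio averaged 1.02. The values below 1 for shared peaks thus depended on how the stretches were set.

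**Figure D3:**
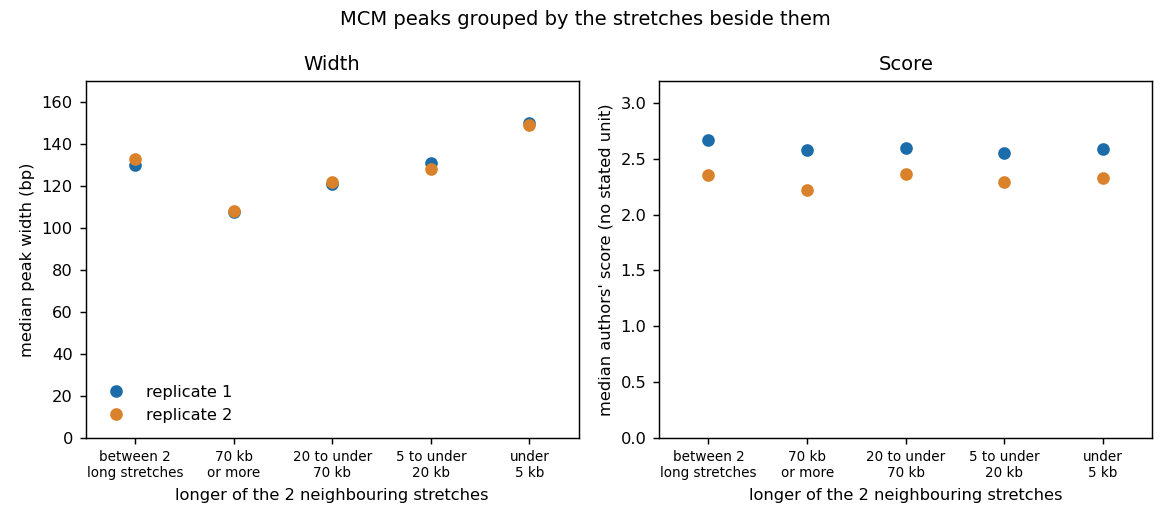
Median width in bp (left) and median score (right) of MCM peaks, by the longer of the stretches beside the region they belong to. Points are replicates 1 and 2. Width is 108 bp beside stretches of 70 kb or more and 149 to 150 bp where both neighbours are under 5 kb, while median scores of the classes range between 2.55 and 2.67 for replicate 1 and between 2.22 and 2.37 for replicate 2.

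Sharing of flanking peaks differed from that of other peaks by no more than the spread between replicates. In replicate 1, 63.7% of flanking peaks (298 of 468, exact binomial 95% interval 59.1% to 68.0%) overlapped a replicate 2 peak, against 67.6% of the others (66.7% to 68.5%). In replicate 2 it was 87.2% of flanking peaks (301 of 345, 83.3% to 90.6%), against 86.9% of the others (86.1% to 87.6%). The intervals cover counting error only. The difference averaged -1.79 ± 3.02 percentage points (SD, n = 2).

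Seen from the stretches, 58.8% of the 536 edges (315) lay at a region held by both replicates, 32.8% (176) at a replicate 1 peak alone and 8.40% (45) at a replicate 2 peak alone. Among regions that bound no long stretch, these shares were close, with 61.0%, 29.5% and 9.45%. Both edges were held by both replicates in 93 stretches, 1 edge in 129 and neither in 46. Of the 20 edges of the 10 longest stretches, 8 lay at a region of both replicates. At least 1 edge region was under 20 bp wide in 54 of the 268 stretches. Each stretch has 2 edges, and by regions the share under 20 bp was 10.6% at flanks, against 9.48% elsewhere.

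In replicate 1 most long stretches had nearly the pooled length. The peak-free stretch of replicate 1 around each member was longer than the pooled one by under 1 kb in 238 of 268 cases (88.8%), and by 10 kb or more in 20 (7.46%). In replicate 2, which has fewer peaks, it was longer by under 1 kb in 142 of 266 cases (53.4%) and by 10 kb or more in 85 (32.0%). The other 2 members, at the proximal ends of 3L and 2L, lay past the last peak of replicate 2. The largest differences were in the proximal part of 3L, where replicate 2 had no peak from 23659731 to 24124847 over 465 kb, and replicate 1 had 6 peaks inside.

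**Figure D4:**
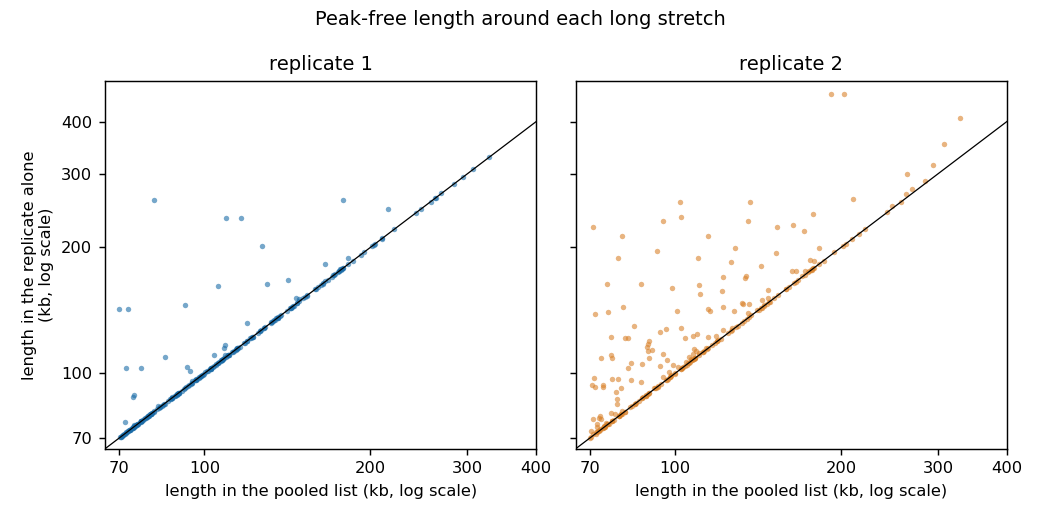
Length in kb of the peak-free stretch that replicate 1 (left) and replicate 2 (right) alone has around each long stretch, against its length in the pooled list, both on log scales, for the 266 members bounded in both replicates. The line marks equal lengths: most points of replicate 1 lie on it, and more of those of replicate 2 lie above it.

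Stretches set by one replicate alone held few peaks of the other, in part by construction. Only unshared peaks could lie inside, found in 1069 regions of replicate 2 and 3373 of replicate 1, while shared peaks counted outside. Replicate 1 alone had 282 stretches of 70 kb or more, covering 33.4 Mb, and inside them replicate 2 had 66 peaks, or 1.98 per Mb, against 93.7 per Mb outside. Replicate 2 alone had 338, covering 40.8 Mb, and inside them replicate 1 had 396 peaks, or 9.70 per Mb, against 127 per Mb outside. The ratio of inside to outside density was 0.0211 for replicate 2 peaks and 0.0765 for replicate 1 peaks, a mean of 0.0488 ± 0.0392 (SD, n = 2). The 2 directions use the same pair of lists, so this SD covers no further extractions, and the number of samples allows no test. Shorter stretches were not measured in this way, so these ratios do not show what is particular to long ones.

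Of the 282 stretches set by replicate 1, 227 (80.5%, exact binomial 95% interval 75.4% to 85.0%) held no whole peak of replicate 2, 47 held 1 and 8 held 2 or more. Of the 338 set by replicate 2, 123 (36.4%, 31.3% to 41.8%) held no whole peak of replicate 1, 110 held 1 and 105 held 2 or more. Where the other replicate interrupted a stretch, a piece of 70 kb or more was left in 38 of 55 stretches of replicate 1 and in 136 of 215 of replicate 2. The longest interrupted stretches of replicate 1 were 3L from 23331259 to 23659736, 2L from 11528342 to 11797833 and 3L from 13578820 to 13838479. The first of these lost 0.058 kb and the second 0.592 kb, since the peaks of replicate 2 lay at their ends, while 178 of 260 kb were left of the third. Of replicate 2, they were 3L from 23659731 to 24124847, with 203 of 465 kb left, 3L from 23251932 to 23659678, with 328 of 408 kb, and 2L from 16888967 to 17243290, with 308 of 354 kb.

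The interrupting peaks, which by construction are unshared, were narrow. Those of replicate 2 inside stretches of replicate 1 had a median width of 36.5 bp, against 133 bp for all its peaks on the arms, and a median score of 2.17, against 2.32. Those of replicate 1 inside stretches of replicate 2 had 57.5 bp, against 135 bp, and a median score of 2.25, against 2.58. Peaks without a partner in the other replicate are narrow everywhere on the arms, with medians of 37 bp in replicate 2 and 59 bp in replicate 1, so the interrupting peaks were close to unshared peaks in width. The median score of unshared peaks was 2.10 in replicate 2 and 2.18 in replicate 1, below that of the interrupting peaks in both. The interrupting peaks were more frequent near the ends of the stretches than the bases there, although most lay further in. Within 10 kb of an end were 37.9% of those of replicate 2 and 44.2% of those of replicate 1, while 16.9% and 16.6% of the bases of the stretches lay there.

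The authors' list of the whole series, which holds the regions found in both replicates, had 361 long stretches covering 44.9 Mb, or 37.6% of the span. Of these, 93 held no region at all, and the other 268 held 637 regions called in a single replicate, up to 11 in one stretch. The longest was on 3L from 23251966 to 24168640, with 917 kb, and contained 8 regions of replicate 1 only and 2 of replicate 2 only. The second, on 2R from 811789 to 1264837, measured 453 kb and contained 5 regions from each replicate alone. The third, on 2L from 16888975 to 17243224, measured 354 kb and contained 1 region of replicate 1.

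MCM peaks were denser than the mean in the first 1 kb outside long stretches and lay somewhat below it from there on. That mean also counts the flanking peaks, 468 in replicate 1 and 345 in replicate 2, while distances start beyond the flanking region. Values a little under the mean are therefore in part by construction. Beyond the flanking region, and counting only bases outside long stretches, replicate 1 had 196 peaks per Mb in the first 1 kb, 103 from 1 to 5 kb, 98.9 from 5 to 10 kb and 106 from 10 to 20 kb, against a mean of 117 outside long stretches. Replicate 2 had 147, 83.7, 87.5 and 82.8 peaks per Mb at these distances, against a mean of 92.4. From 1 to 20 kb the density was thus 0.845 to 0.948 times that mean, and from 50 to 100 kb it was 0.961 and 0.957 times in replicates 1 and 2. Edges that lie close together share some of these bases.

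Edges of stretches of 20 to under 70 kb had more peaks close by. In the first 1 kb they had 226 peaks per Mb in replicate 1 and 176 in replicate 2, so the rise there is not particular to long stretches. From 1 to 5 kb, the density was 93.6 ± 14.0 peaks per Mb beyond long stretches, against 131 ± 19.9 beyond those of 20 to under 70 kb (SD, n = 2 each). Replicate 1 had 103 and 145, and replicate 2 had 83.7 and 117, so the order was the same in both. From 5 to 10 kb, density beyond the stretches of 20 to under 70 kb was also below the mean outside long stretches, at 0.964 and 0.952 times in replicates 1 and 2. From 20 kb outward the values differed little, with 98.6 ± 16.6 beyond long stretches and 98.9 ± 16.1 beyond those of 20 to under 70 kb (SD, n = 2 each, from 20 to 50 kb).

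**Figure D5:**
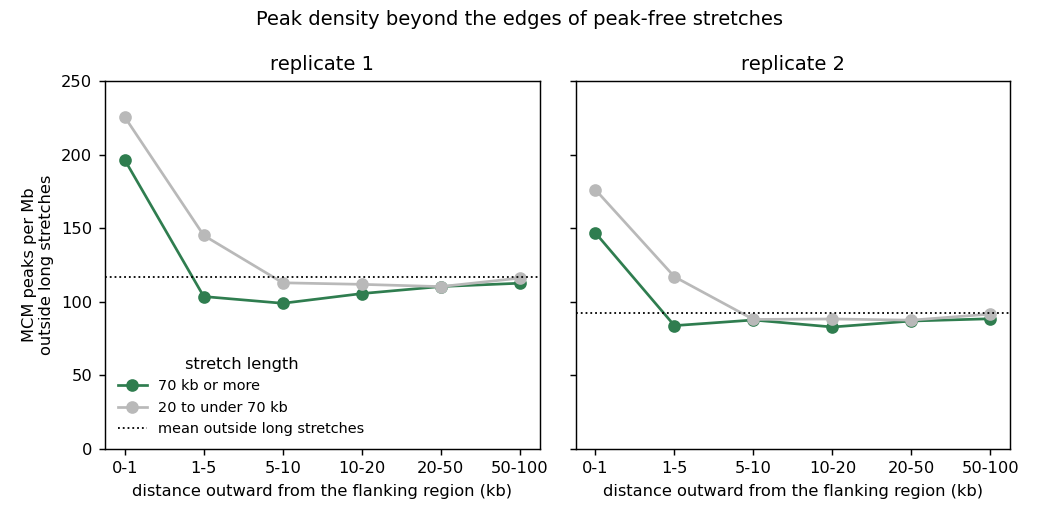
MCM peaks per Mb of sequence outside long stretches, by distance in kb from the flanking region outward, for stretches of 70 kb or more (green) and of 20 to under 70 kb (grey) in replicates 1 and 2. The dotted line is the mean outside long stretches, 117 per Mb in replicate 1 and 92.4 in replicate 2, and from 1 to 5 kb the green line lies at 0.884 and 0.906 times these means. The means count flanking peaks, while the distances start beyond the flanking region.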

How the data were processed

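Per the file headers, peaks were placed on FlyBase r5.1, and per the deposited lists PeakSeq called them, in each replicate alone. The authors deposited a score per peak without a unit, used here within a list, except that the single regions to be named were picked by a mean over both lists. Aligner, caller settings and role of the input: not given in the sources used here. Depth is unknown.

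Peaks of both replicates on 2L, 2R, 3L, 3R, X and 4 were pooled and merged with Python 3.11.15 and pandas 2.3.3. A stretch is the sequence between neighbouring merged regions, long from 70000 bp. Arm spans run from the first to the last region, and arms were oriented from textbook knowledge. Sharing needs 1 bp of overlap. A peak is inside a stretch when all of it is. Intervals are exact Clopper-Pearson at 95% (scipy 1.17.1), and SDs come from 2 replicates. The scripts were tested on simulated data.

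The members and the rule for named regions (longest overall and per arm, nearest the threshold, longest pairs, highest-scoring and widest single regions, longest interrupted stretches, top windows) were chosen with earlier results of these data known. Tried alternatives were 50 and 100 kb thresholds, 4 peak filters, merging within 1 kb and single replicates.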

Additional observations from a re-analysis of the deposited data

How the results depend on the processing

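No paired analysis was possible because the 2 immunoprecipitations form 1 group and the input is not analysed here.

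Flanking peaks stayed narrower than others in all settings run. The width ratio, 0.810 as reported, was 0.842 with stretches of 50 kb or more, 0.851 with 100 kb or more, 0.833 with the higher-scoring 50% of peaks, 0.843 with only regions held by both replicates, 0.849 with only peaks covered for 50% by the other replicate and 0.823 with peaks within 1 kb merged. With one replicate alone it ranged from 0.796 to 0.873. The ratio moved by more than the SD between replicates, 0.00485, in 8 of the 9 settings. That SD is from peaks of both replicates at the same pooled flanks. With each replicate's own stretches the ratio was 0.834 ± 0.0548 (SD, n = 2). The score ratio, 0.984 as reported, was on the other side of 1 with only shared regions (1.02), with 50% coverage (1.01), without replicate 1 (1.01) and, at 1.0004, with 50 kb. It moved by more than the SD between replicates, 0.0286, in the settings with only shared regions and with 50% coverage.

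The number and share of long stretches followed the threshold and the peaks admitted. There were 498 with 50 kb and 143 with 100 kb, covering 37.4% and 17.7% of the span. The share was 40.7% with the higher-scoring 50% of peaks, 37.6% with only shared regions and 38.2% with 50% coverage, and 27.9% to 34.2% with one replicate alone. The share of long neighbours, 9.35% against 2.36% of all stretches as reported, was 11.7% against 4.39% with 50 kb, 4.90% against 1.26% with 100 kb, 11.1% against 2.81% without peaks under 20 bp, 11.5% against 6.48% with the higher-scoring peaks, 10.9% against 5.22% with only shared regions, 11.0% against 5.31% with 50% coverage, 10.1% against 3.52% with peaks within 1 kb merged, and 10.3% against 2.72% to 11.0% against 4.14% with one replicate. The ratio of these shares, 3.96 as reported, ranged from 1.77 with the higher-scoring peaks to 3.94 without peaks under 20 bp. The 20% of the spans next to the centromere held 25.6% of the long length as reported, 23.6% with 50 kb, 28.1% with 100 kb, 24.4% without peaks under 20 bp, 23.4% with the higher-scoring peaks, 23.8% with only shared regions, 23.9% with 50% coverage and 24.3% to 24.8% with one replicate. Apart from the number of stretches, which is judged by its size, and the share of span without replicate 2 (27.9%), the values of this paragraph moved by more than the SD between replicates. The cause was not tested. The density ratio in stretches set by the other replicate and the sharing difference moved by less than that SD in each setting run. The density ratio and the sharing difference could not be had from one replicate.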
